A study of Mus musculus with 16 samples.

Results

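The response to interferon-γ (IFNγ) was examined in control KPC1199 pancreatic cancer cells by RNA-seq, with 3 libraries of IFNγ-treated cells and 3 libraries of untreated cells. These 6 libraries were picked by their labels (guide sgCtrL, genotype WT) from the 16 libraries of the study, whose question was what the loss of the transcriptional co-repressor Sin3B does to pancreatic tumor cells and their immune recognition. The treated group (sgCtrL with IFNγ) received 10 ng/ml IFNγ for 24 hours and the untreated group (sgCtrL without IFNγ) received none. KPC1199 is a line of mouse pancreatic ductal adenocarcinoma cells from a tumor of the KPC mouse, in which Pdx-cre switches on tumor-driving alleles, mutant Trp53 among them. All 6 libraries also share a lentiCRISPR v2 vector, puromycin selection and a control guide, which the deposited columns name after lacZ. The groups are thus 1 tumor line grown in culture. The labels do not say whether the 3 libraries of a group came from separate cultures, so the spread between them may be technical. The p-values below rest on that spread, estimated within groups over all 12 libraries of the IFNγ experiment. Of these, 6 are from cells with a guide against Sin3b.

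IFNγ is a cytokine made mainly by T cells and natural killer cells. It binds a receptor of Ifngr1 and Ifngr2 chains, whose kinases Jak1 and Jak2 signal to the nucleus, where a first wave of genes that includes the transcription factor Irf1 is raised through GAS elements in DNA. Irf1 and complexes that hold Stat2 and Irf9 act through a second element, the ISRE, on later targets: antigen presentation genes, GTPases that attack intracellular pathogens, antiviral genes and chemokines that attract T cells. In tumor cells the pathway is known both for making cells visible to T cells and for raising inhibitory molecules such as PD-L1.

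The promoters of 5 genes of this cascade are shown because they carry, or lack, the core letters of these elements. The windows run from 250 bases before to 50 after the annotated start, written 5′ to 3′ on the gene's strand, from RefSeq on GRCm38.p6. Capitals mark matches to the GAS core TTCNNNGAA or to the ISRE core, GAAA followed after any 2 bases by GAAA, on either strand. They come from chr11:53769764-53770063 (plus strand) for Irf1, chr5:92348840-92349139 (minus) for Cxcl10, chr3:142620413-142620712 (plus) for Gbp2, chr5:92328030-92328329 (minus) for Cxcl9 and chr17:34187281-34187580 (minus) for Psmb9.
Irf1: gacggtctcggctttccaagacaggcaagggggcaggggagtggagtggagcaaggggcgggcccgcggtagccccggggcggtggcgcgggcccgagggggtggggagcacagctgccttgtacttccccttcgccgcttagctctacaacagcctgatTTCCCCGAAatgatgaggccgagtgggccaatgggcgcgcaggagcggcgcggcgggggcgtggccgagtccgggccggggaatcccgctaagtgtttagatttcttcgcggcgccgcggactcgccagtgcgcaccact
Cxcl10: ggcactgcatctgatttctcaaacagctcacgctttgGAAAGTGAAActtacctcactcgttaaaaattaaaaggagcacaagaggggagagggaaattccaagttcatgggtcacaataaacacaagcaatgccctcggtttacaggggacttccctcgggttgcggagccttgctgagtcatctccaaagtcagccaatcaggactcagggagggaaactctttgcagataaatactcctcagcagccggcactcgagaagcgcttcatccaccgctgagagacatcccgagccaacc
Gbp2: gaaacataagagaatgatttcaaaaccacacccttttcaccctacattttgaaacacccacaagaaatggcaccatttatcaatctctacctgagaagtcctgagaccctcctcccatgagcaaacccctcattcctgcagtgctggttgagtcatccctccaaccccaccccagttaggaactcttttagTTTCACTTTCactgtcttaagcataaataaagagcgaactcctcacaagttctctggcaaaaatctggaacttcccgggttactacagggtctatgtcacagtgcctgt
Cxcl9: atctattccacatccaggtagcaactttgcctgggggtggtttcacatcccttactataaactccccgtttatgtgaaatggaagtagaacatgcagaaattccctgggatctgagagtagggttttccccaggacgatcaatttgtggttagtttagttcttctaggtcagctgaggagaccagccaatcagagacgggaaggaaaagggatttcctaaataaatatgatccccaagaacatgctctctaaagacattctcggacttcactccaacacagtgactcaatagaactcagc
Psmb9: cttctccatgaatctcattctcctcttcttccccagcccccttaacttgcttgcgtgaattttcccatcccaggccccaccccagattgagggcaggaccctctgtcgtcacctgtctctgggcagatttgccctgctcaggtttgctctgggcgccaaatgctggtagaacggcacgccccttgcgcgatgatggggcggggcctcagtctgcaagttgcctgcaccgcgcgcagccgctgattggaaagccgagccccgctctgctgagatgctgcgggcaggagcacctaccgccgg
The Irf1 window held 1 GAS core that began at position −90 from the start. The Cxcl10 window held 1 ISRE core at −213 and the Gbp2 window held 1 at −59, there on the opposite strand. No GAS or ISRE match overlapped another, and the Cxcl9 and Psmb9 windows held neither core, which says only that these letters were not in these windows. Of all 27025 promoter windows, 8.42% held the GAS core and 3.49% held the ISRE core. Nlrc5 and Muc5ac were not among the windows used. Only 294 of the 478 genes called at least 2-fold higher and 207 of the 303 at least 2-fold lower had a window. The ISRE core was in 24.8% of those 294 and 0.966% of those 207, against 3.13% of 10592 tested genes with a window. For the GAS core the shares were 15.3% and 10.1%, against 6.98%. These shares describe only the genes with a window, and no test was run on them.

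The 6 libraries held between 18128055 and 27056903 estimated reads on 56980 features, and 14913 genes passed the filter on low values. Levels are given as CPM (counts scaled to a common library size, with TMM factors), with mean ± SD over 3 libraries where a group is summarised. A log2 fold change is the treated minus the untreated group on the log2 scale, with its standard error (SE), and a gene was called at an adjusted p under 0.05 by edgeR's quasi-likelihood test with Benjamini-Hochberg adjustment over the 14913 genes. The markers of the line as an epithelial tumor cell were present, with Krt8 at 1308 ± 22.3 CPM, Krt19 at 899 ± 13 CPM and Cdh1 at 89.6 ± 1.93 CPM in untreated cells, although Epcam stood at only 6.36 ± 1.46 CPM. Of 16 immune cell markers, 9 had no read in any of the 6 libraries, Cd3e and Adgre1 among them, Ptprc had 3 reads in all, and 14 stayed under 0.5 CPM throughout. Their summed level ran from 15 to 16.4 CPM without IFNγ and from 19.7 to 23.9 CPM with it, and came mostly from Ly6g, a member of the Ly6 family of surface proteins (from 9.75 ± 0.776 to 15.6 ± 0.999 CPM), and the lysosomal protein gene Cd68. Of 12 fibroblast and endothelial markers 3 (Thy1, Cdh5 and Kdr) had no read, and the summed level ran from 263 to 270 CPM without IFNγ and from 190 to 193 CPM with it, most of it Pdgfra (from 233 ± 3.91 to 165 ± 1.09 CPM). One library stood apart from its group: IFNγ replicate 1 differed from replicates 2 and 3 by a chi-square of 23.2 and 19.5 per gene, against 4.12 between those replicates and 2.52 to 2.78 within the untreated group. The leading counts are therefore given with and without it.

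IFNγ changed 4507 of 14913 genes (30.2%), of which 2343 (15.7%) were higher and 2164 (14.5%) were lower. The largest rises were far greater than the largest falls. At 2-fold or more, 478 genes (3.21%) were higher and 303 (2.03%) were lower. At 4-fold or more the counts were 256 and 52, and at 16-fold or more 124 and 4, with 68 genes 64-fold higher or beyond. These counts use fitted folds, which are poorly fixed for genes with few or no reads in untreated cells. Ccl8, with no read there, was fitted at 9.20 on the log2 scale, but its lower bound was 21.4-fold. The 4 genes at the far end of the falls, Exosc6, Lrg1, H2ac19 and Serpina3m (named for this count after their values were seen), averaged under 2 CPM in untreated cells, and for Exosc6 and H2ac19 the groups overlapped. The median called gene was 0.35 higher or 0.39 lower on the log2 scale, so that most calls in either direction were small (1865 rises and 1861 falls under 2-fold). All treated libraries lay outside the range of all untreated libraries for 467 of the 478 and 294 of the 303 genes. Over all genes tested the share was 41.5%. Because the same libraries picked the 478 and 303 genes, their separation is no further support. Without IFNγ replicate 1 the counts were 2282 higher and 2444 lower, with 510 and 303 at 2-fold. When the libraries were scaled by their totals alone, 1644 genes were higher and 3093 lower, which moved the higher share of calls from 52.0% to 34.7%, whereas the strong tier stood at 449 and 358. Small changes below are therefore given with that scaling for many of the lists, though not for each list whose count it alters. Unmarked lists moved too, among them the respiratory chain (0 higher and 4 lower) and ductal identity (1 higher and 13 lower). The EGFR list then stood at 7 higher and 7 lower. The counts of each list stand against 15.7% higher and 14.5% lower over all genes tested. With scaling by totals they stand against 1644 higher and 3093 lower of 14913.

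**Figure D1:**
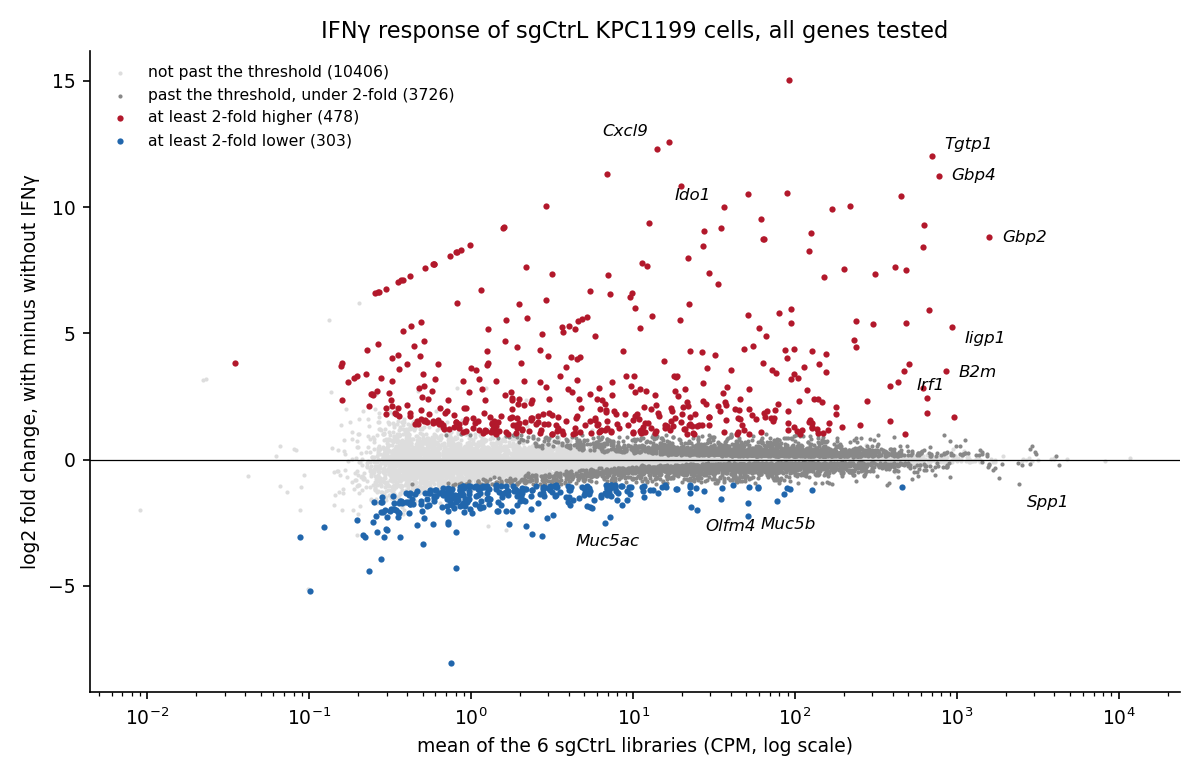
Each point is 1 of the 14913 genes tested; the x axis gives the mean level over the 6 control libraries in CPM (log axis) and the y axis the log2 fold change of IFNγ-treated over untreated cells. The 478 genes at least 2-fold higher reach past 12 on the log2 scale, whereas 52 of the 303 genes at least 2-fold lower reach −2; the 3726 smaller calls and the 10406 genes not called are drawn apart by colour.

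In the pool of transcripts, the 478 genes made up 0.746 ± 0.0065% of the library in TPM, a share of transcripts that corrects for gene length, without IFNγ and 4.60 ± 0.0079% with it. The 303 genes went the other way, from 0.211 ± 0.0031% to 0.0804 ± 0.0015%. The gain in TPM was largest for B2m, the light chain of MHC class I (from 354 ± 8.62 to 3793 ± 237 TPM), for the guanylate-binding protein Gbp2 (from 6.21 ± 0.45 to 2614 ± 274 TPM) and for Ly6a, the GPI-anchored surface protein Sca-1 (from 1160.1 ± 37.6 to 3500.1 ± 251 TPM). The secreted glycoprotein Spp1 (osteopontin) gave the largest loss, from 4957 ± 98.2 to 2409 ± 92 TPM, ahead of the mitochondrially encoded mt-Cytb (from 8733 ± 108 to 7154 ± 313 TPM) and the ferritin light chain Ftl1 (from 4295 ± 76.5 to 3092 ± 59.9 TPM).

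**Figure D2:**
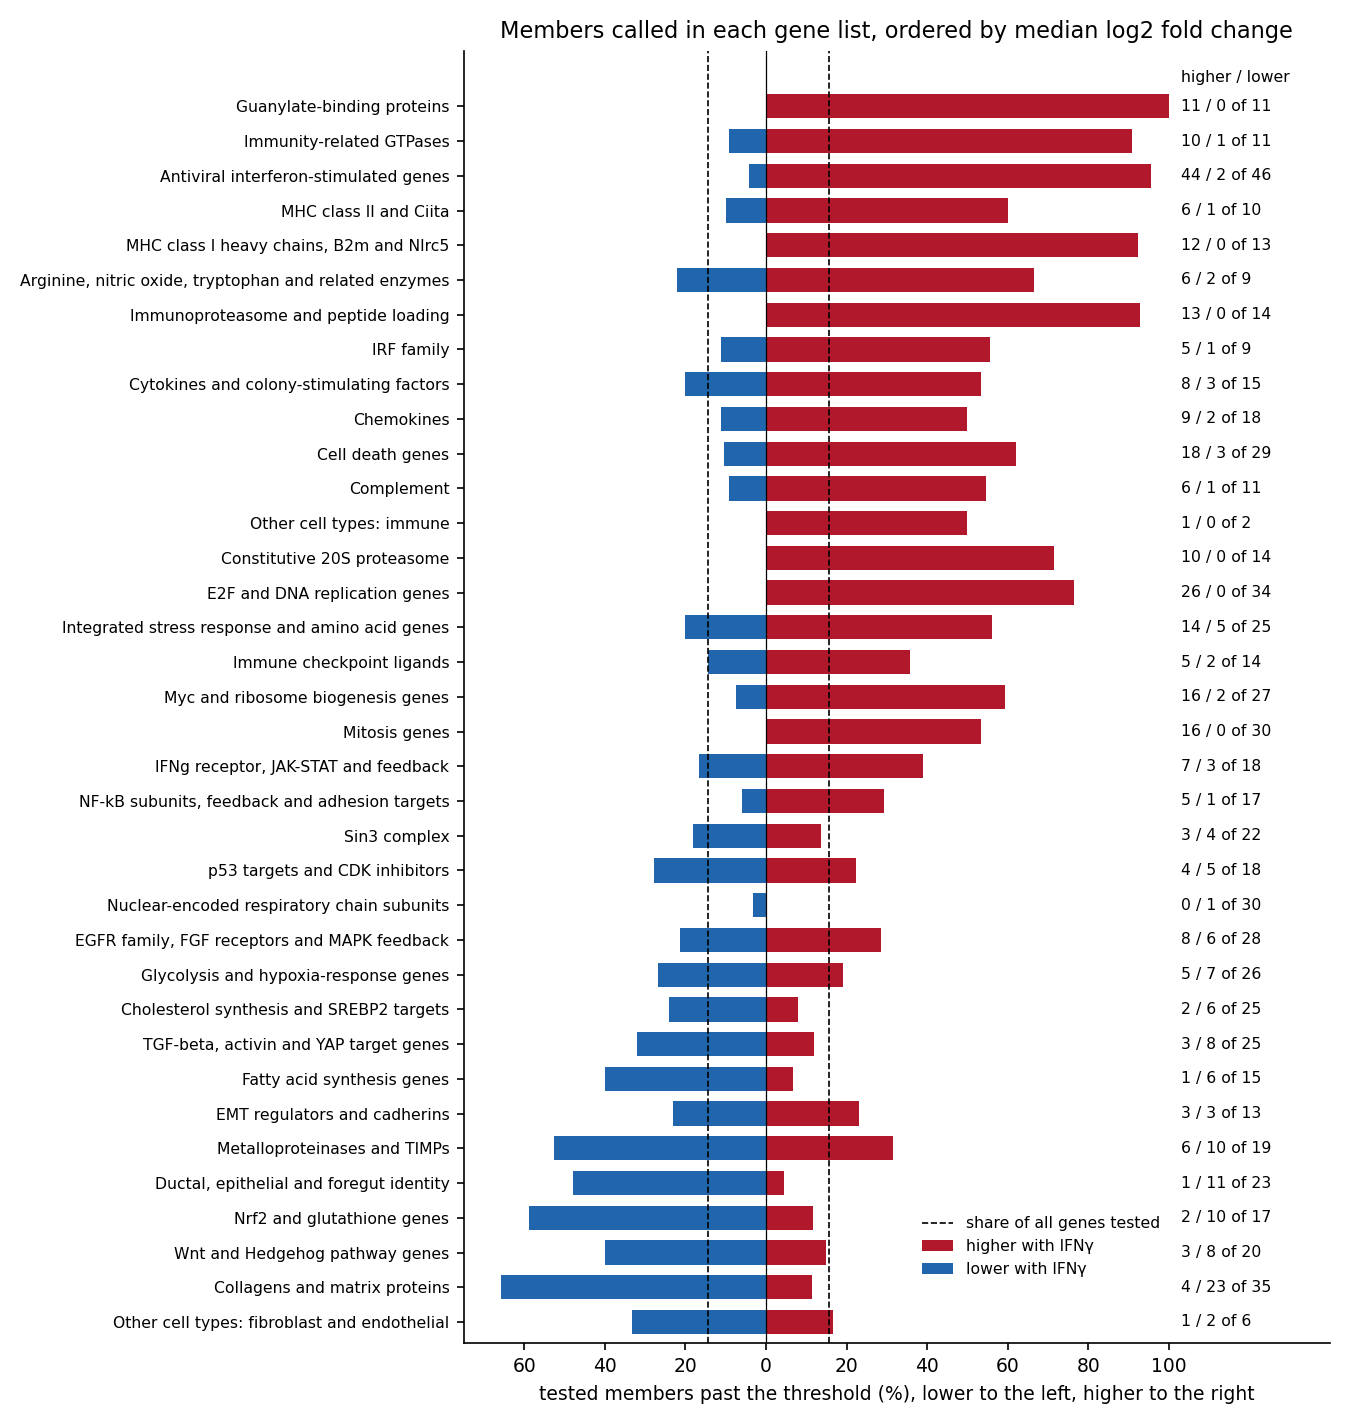
For each of 36 gene lists, bars to the right give the percent of tested members called higher with IFNγ and bars to the left the percent called lower. Dashed lines mark the share of all genes tested, 15.7% higher and 14.5% lower. The interferon and antigen presentation lists stand far to the right. The matrix, Nrf2 and ductal identity lists reach mostly to the left. The metalloproteinase list reaches both ways (31.6% higher and 52.6% lower).

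The 2 genes that mark the response both rose. Irf1 (ENSMUSG00000018899), the transcription factor of the first wave, stood at 75.7, 75.1 and 77.3 CPM without IFNγ and 862, 881 and 857 CPM with it (log2 fold change 3.51, SE 0.042, edgeR adjusted p = 1.68e-18). Cxcl9 (ENSMUSG00000029417), a chemokine that attracts T cells through Cxcr3, had no read in the 3 untreated libraries and 33.5, 35.3 and 30.7 CPM in the treated ones. Its level was thus at least 222-fold higher, taking 3 counts per library as the floor (edgeR adjusted p = 2.85e-12). For both genes the groups were far apart and the treated libraries lay close together.

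Among 18 genes of the receptor, JAK-STAT and feedback list, 7 rose and 3 fell (median log2 fold change 0.10, against −0.00062 over all genes tested). The 2 receptor chains moved little. Ifngr1 had 146 ± 3.02 CPM without and 139.6 ± 7.78 CPM with IFNγ and was not called (edgeR adjusted p = 0.298). Ifngr2 fell from 113 ± 3.89 to 91.4 ± 2.49 CPM (log2 fold change -0.30, SE 0.051, edgeR adjusted p = 0.000320). The kinases Jak1 and Jak2 were not called either, at 204 ± 4.88 against 203 ± 13 CPM and 116 ± 2.18 against 123 ± 7.07 CPM. Stat2, a transducer that acts in the ISRE-binding complex, rose from 8.43 ± 0.106 to 119 ± 16.5 CPM (log2 fold change 3.82, SE 0.10, edgeR adjusted p = 2.99e-14), whereas Stat3, the transducer of IL-6 family signals, rose by only 0.24 on the log2 scale. The inhibitors diverged. Socs1, which blocks the Jak kinases and is itself an IFNγ target, rose from 3.4 ± 0.109 to 60.8 ± 5.63 CPM (log2 fold change 4.16, SE 0.11, edgeR adjusted p = 3.86e-14). Usp18, an inhibitor of interferon receptor signaling, had 3 reads over the untreated group and was higher by 79.2-fold with a 95% counting interval from 26.8 to 386. Socs3, which restrains Stat3 signaling, fell from 155 ± 2.35 to 133 ± 7.05 CPM (log2 fold change -0.22, SE 0.047, edgeR adjusted p = 0.00203).

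In the IRF list, 5 of 9 tested members rose and 1 fell (median 0.92; none lower without untreated replicate 2 or IFNγ replicate 1 or 3). Besides Irf1, Irf9, the DNA-binding partner of Stat2, rose from 12.7 ± 0.519 to 61.2 ± 2.18 CPM (log2 fold change 2.26, SE 0.070, edgeR adjusted p = 3.61e-13). Irf7, the amplifier of type I interferon genes, rose from 1.89 ± 0.538 to 29.1 ± 1.66 CPM (log2 fold change 3.90, edgeR adjusted p = 2.40e-12). Irf2, which binds the same sites as Irf1 and can oppose it, rose more modestly, from 38 ± 2.85 to 72 ± 2.13 CPM (log2 fold change 0.92, SE 0.055, edgeR adjusted p = 2.30e-09). Irf3, the constitutive sensor-activated factor, was not called (19.6 ± 1.25 and 20.3 ± 2.99 CPM). Batf2, a leucine zipper partner of Irf1, had 1 read in the untreated group and 39.4 ± 1.24 CPM with IFNγ, a ratio of 2408-fold with a 95% counting interval from 432 to 95133.

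Of the 36 lists, those of the interferon-inducible GTPases had the largest median rises. All 11 tested guanylate-binding proteins, large GTPases that coat the vacuoles of intracellular pathogens, rose (median 8.80), and 10 of 11 tested immunity-related GTPases, smaller relatives of like function, rose (median 7.34). Gbp2 (ENSMUSG00000028270) stood at 7.5, 6.64 and 7.27 CPM without IFNγ and 3530.1, 2993 and 2978 CPM with it (log2 fold change 8.80, SE 0.095, edgeR adjusted p = 6.90e-19). Tgtp1 (ENSMUSG00000078922), the immunity-related GTPase first found in T cells, stood at 0.0539, 0.376 and 0.535 CPM without IFNγ and 1480.1, 1370.2 and 1355 CPM with it (log2 fold change 12.04, SE 0.19, edgeR adjusted p = 5.17e-17). For both genes all 3 treated libraries were far above the untreated ones. Gbp4 followed, from 0.611 ± 0.279 to 1538 ± 36.1 CPM (log2 fold change 11.23), with Gbp3 from 0.66 ± 0.0657 to 907 ± 36 CPM (10.43) and Gbp10 from 0.395 ± 0.166 to 436 ± 10.5 CPM (10.04). Gbp11, with 2 reads in the untreated group, was higher by 779-fold with a 95% counting interval from 215 to 6437. Of the immunity-related GTPases, Iigp1, which disrupts vacuole membranes, rose from 47.3 ± 2.35 to 1819.7 ± 41.7 CPM (log2 fold change 5.27, SE 0.068, edgeR adjusted p = 4.81e-18). Irgm1, the regulator that guards the cell's own membranes, rose from 22.4 ± 1.23 to 940.5 ± 71.7 CPM (log2 fold change 5.39, SE 0.069, edgeR adjusted p = 4.28e-18). Irgq, a divergent member of the family, was the 1 that fell (from 25.2 ± 1.13 to 21.2 ± 0.644 CPM, log2 fold change -0.24, edgeR adjusted p = 0.0138), and its call was lost under some alternatives. Near-identical copies such as Tgtp1 and Tgtp2 may share reads, and Igtp overlaps Irgm2, so the split between such pairs is uncertain.

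**Figure D3:**
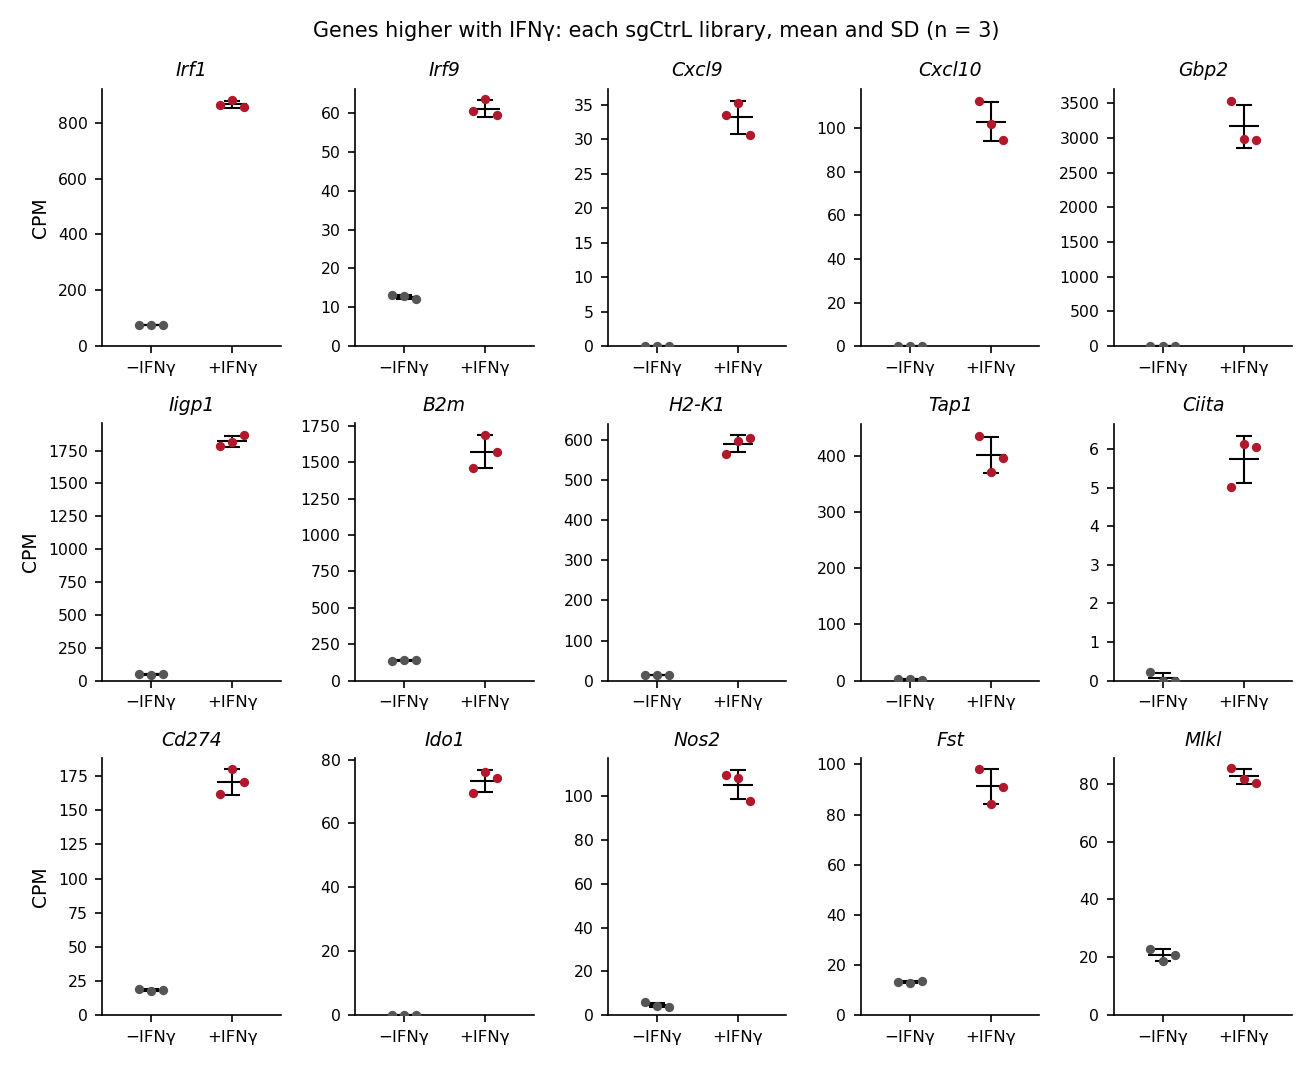
Each panel is 1 of 15 named genes, with dots for the 3 untreated and the 3 IFNγ-treated control libraries in CPM on a linear axis of its own that starts at 0, and with the mean and SD. For each gene the treated dots lie above the untreated ones, and Cxcl9 had no read without IFNγ.

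Antiviral interferon-stimulated genes rose almost throughout: 44 of 46 tested members rose and 2 fell (median 3.51). Zbp1, a sensor of Z-form nucleic acids that can start necroptosis, stood at 0.27, 0.167 and 0.481 CPM without IFNγ and 127, 130.2 and 125 CPM with it (log2 fold change 8.73, SE 0.13, edgeR adjusted p = 1.83e-17). Rtp4 rose from 0.32 ± 0.23 to 58.6 ± 2.39 CPM, the RNase L activating synthetase Oas2 from 0.204 ± 0.252 to 19.5 ± 1.12 CPM and Ifi44 from 0.118 ± 0.138 to 24.4 ± 1.35 CPM, with log2 fold changes of 7.40, 6.59 and 7.67. These came from levels under 1 CPM. Isg15, the ubiquitin-like modifier, rose from 0.493 ± 0.135 to 25.5 ± 2.76 CPM (log2 fold change 5.69, SE 0.18, edgeR adjusted p = 4.72e-13). The mono-ADP-ribosyltransferase Parp14 (from 20.7 ± 1.04 to 457 ± 32.1 CPM) and the nucleotide hydrolase Samhd1 (from 92.5 ± 2.63 to 769 ± 34 CPM) were already read clearly without IFNγ and rose too. The 2 members that fell were membrane proteins of 1 family. Ifitm2 fell from 323 ± 10.8 to 217 ± 9.54 CPM (log2 fold change -0.57, SE 0.049, edgeR adjusted p = 1.92e-07) and Ifitm1 fell from 284 ± 21.3 to 203 ± 29.1 CPM (log2 fold change -0.49, edgeR adjusted p = 0.00149). Their relative Ifitm3, which blocks the entry of enveloped viruses, rose from 212 ± 6.84 to 371 ± 9.2 CPM (log2 fold change 0.80, SE 0.048, edgeR adjusted p = 2.21e-09).

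Antigen presentation through MHC class I rose almost throughout. Of 13 tested heavy chains and partners 12 rose (median 3.12). H2-K1 (ENSMUSG00000061232), a classical heavy chain, stood at 14.5, 14.4 and 13.4 CPM without IFNγ and 565, 597 and 605 CPM with it (log2 fold change 5.39, SE 0.065, edgeR adjusted p = 2.03e-18). The other classical heavy chain, H2-D1, rose from 68.6 ± 2.96 to 938 ± 7.73 CPM (log2 fold change 3.77, SE 0.054, edgeR adjusted p = 1.29e-17). B2m (ENSMUSG00000060802) stood at 134, 144 and 139 CPM without IFNγ and 1459, 1688 and 1569 CPM with it (log2 fold change 3.50, SE 0.064, edgeR adjusted p = 2.92e-16). Its untreated level already exceeded those of the heavy chains, in TPM 354 ± 8.62 against 19 ± 0.811 for H2-K1 and 86.1 ± 2.84 for H2-D1, and with IFNγ the levels were 3793 ± 237, 756 ± 27.7 and 1117 ± 24.4 TPM. Nlrc5, the transactivator of these genes, rose from 1.95 ± 0.332 to 101 ± 17.4 CPM (log2 fold change 5.71, SE 0.15, edgeR adjusted p = 2.99e-14). The non-classical H2-Q4 and H2-T23 rose from 2.78 ± 0.173 to 156 ± 8.41 CPM and from 12.3 ± 0.776 to 241 ± 4.62 CPM. Class I heavy chains resemble each other closely, so reads may be split among them. Mr1, which presents vitamin metabolites, was not called (15.3 ± 1.9 and 14 ± 1.34 CPM).

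Of the 14 genes for the immunoproteasome and peptide loading, 13 rose (median 2.61). Psmb9 (ENSMUSG00000096727), a catalytic subunit, stood at 0.0539, 0.209 and 0.214 CPM without IFNγ and 119.9, 125 and 127 CPM with it (log2 fold change 9.52, SE 0.13, edgeR adjusted p = 8.14e-18). The peptide transporter Tap1, which lies beside Psmb9 on the opposite strand and may share reads with it, rose from 2.15 ± 0.204 to 401 ± 32.2 CPM (log2 fold change 7.55, SE 0.094, edgeR adjusted p = 2.85e-18). Its partner Tap2 rose from 8.94 ± 0.838 to 187 ± 6.38 CPM, the loading chaperone Tapbp (tapasin) from 153 ± 6.38 to 1087 ± 184 CPM and the trimming peptidase Erap1 from 44.6 ± 0.861 to 234 ± 5.83 CPM. Calnexin (Canx), a general chaperone of the endoplasmic reticulum, was the 1 not called (786 ± 6.66 and 810.3 ± 64.3 CPM).

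TPM allow the transcripts of the catalytic subunits to be set beside each other. Psmb8 went from 2.71 ± 0.824 to 384 ± 8.84 TPM while its constitutive counterpart Psmb5 had 179 ± 5.3 and 180.4 ± 6.56 TPM. Psmb9 went from 0.257 ± 0.146 to 190.3 ± 6.26 TPM beside Psmb6 at 388 ± 22.7 and 418 ± 14.7 TPM, and Psmb10 from 27.7 ± 1.21 to 334 ± 27.7 TPM beside Psmb7 at 274 ± 1.02 and 326 ± 11.6 TPM. Psmb5 and Psmb6 were not called (edgeR adjusted p = 0.333 and 0.0643), while Psmb7 rose by 0.33 on the log2 scale. With IFNγ the transcript level of Psmb8 thus exceeded that of Psmb5, Psmb10 and Psmb7 differed by less than their spread, and Psmb9 stayed below Psmb6. The constitutive 20S core as a whole rose slightly. Of its 14 members 10 rose and none fell (median 0.31; 9 and 0 with scaling by totals). Psma5 led, from 109 ± 3.93 to 173 ± 17.2 CPM (log2 fold change 0.66, SE 0.068, edgeR adjusted p = 1.61e-06).

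**Figure D4:**
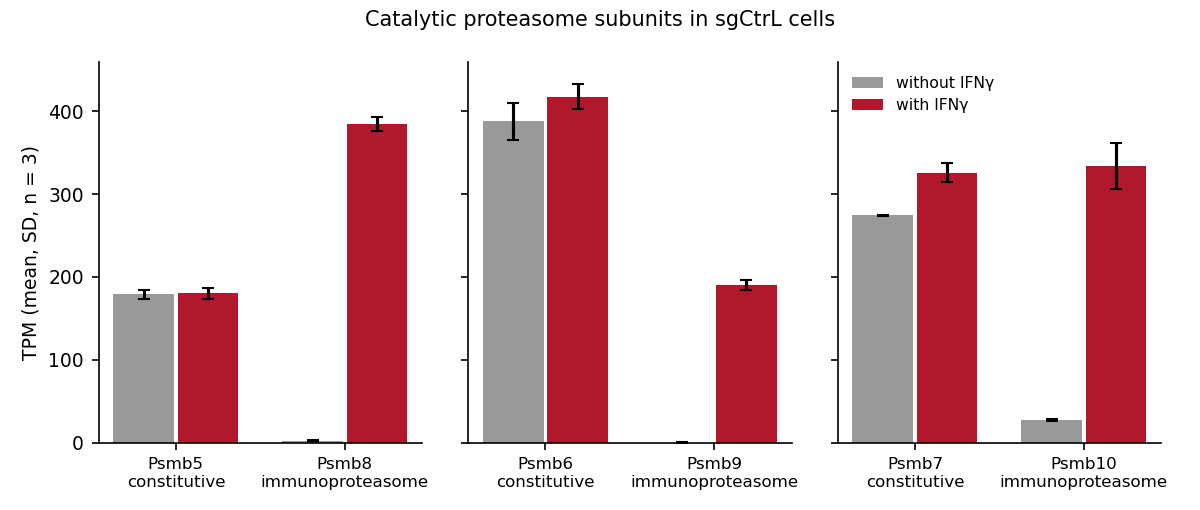
Bars give the mean TPM of the 3 constitutive catalytic proteasome subunits and their 3 inducible counterparts in untreated and IFNγ-treated control cells, and error bars the SD over 3 libraries. Psmb8, Psmb9 and Psmb10 go from 2.71, 0.257 and 27.7 TPM to 384, 190.3 and 334 TPM, whereas Psmb5 and Psmb6 barely move.

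MHC class II genes rose but stayed low. Of 10 tested genes 6 rose and 1 fell (median 3.17, or 2.50 with genes unread in untreated cells set to their lower bound). Ciita, the master regulator of class II genes, stood at 0.216, 0 and 0 CPM without IFNγ and 5.02, 6.12 and 6.04 CPM with it (log2 fold change 6.34, SE 0.44, edgeR adjusted p = 1.33e-08). Cd74, the invariant chain, had 4 reads over the untreated libraries and 3.48, 3.06 and 3.15 CPM in the treated ones. The class II chains themselves stayed close to the limit of detection. H2-Ab1 had no read untreated and 0.529 ± 0.214 CPM treated, at least 3.54-fold higher. H2-Aa and H2-Eb1, at 0.0457 ± 0.0502 and 0.0442 ± 0.00602 CPM with IFNγ, had too few reads to be judged. In the factor complex that binds class II promoters, Rfx5 rose from 15.4 ± 1.22 to 24 ± 3.88 CPM (log2 fold change 0.64, edgeR adjusted p = 0.000356) and Rfxank fell from 32 ± 0.497 to 24.2 ± 1.1 CPM (log2 fold change -0.40, edgeR adjusted p = 0.000187).

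Chemokines split into those induced and those not. Of 18 tested, 9 rose and 2 fell (median 0.48). Cxcl10, like Cxcl9 a ligand of Cxcr3, had 4 reads in the untreated group (0.162, 0.0417 and 0 CPM) and 112, 102 and 94.4 CPM with IFNγ (edgeR adjusted p = 2.13e-16); an overlapping gene on the other strand, Art3, could add reads. Cxcl11, the remaining Cxcr3 ligand, went from no read to 1.04 ± 0.522 CPM, at least 6.98-fold higher. Ccl8, a monocyte attractant, also came from no read, to 3.19 ± 0.757 CPM, at least 21.4-fold higher. Cx3cl1 (fractalkine) rose from 13.9 ± 0.258 to 45 ± 2.53 CPM (log2 fold change 1.69, SE 0.061, edgeR adjusted p = 3.03e-12). Cxcl5, a neutrophil attractant, fell from 795 ± 17 to 599.7 ± 49.6 CPM (log2 fold change -0.41, SE 0.067, edgeR adjusted p = 0.000244). Cxcl1, another, was not called (28.9 ± 1.91 and 30.4 ± 6.84 CPM), although it was called without IFNγ replicate 1. Ccl9, a myeloid attractant, fell from 4.49 ± 0.603 to 2.23 ± 0.133 CPM (log2 fold change -1.01, SE 0.17, edgeR adjusted p = 0.000355).

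Of 15 tested cytokine genes 8 rose and 3 fell (median 0.56). The death ligand Tnfsf10 (TRAIL) rose from 0.137 ± 0.127 to 14.3 ± 1.31 CPM (log2 fold change 6.56, SE 0.30, edgeR adjusted p = 7.79e-11). Il18bp, the decoy that neutralises IL-18, rose from 2.63 ± 0.458 to 50.5 ± 0.985 CPM (log2 fold change 4.25, SE 0.12, edgeR adjusted p = 1.15e-13), though it overlaps Numa1 on the other strand. Il15ra, which presents IL-15 to lymphocytes, rose from 2.78 ± 0.608 to 19.1 ± 1.3 CPM (log2 fold change 2.79, edgeR adjusted p = 3.61e-11). The macrophage growth factor Csf1 rose from 93.3 ± 3.9 to 183 ± 1.79 CPM (log2 fold change 0.97, SE 0.043, edgeR adjusted p = 4.02e-11). The 3 that fell were Il33, Il1rn and Csf3. Il33, an alarmin, fell from 50 ± 2.01 to 28.8 ± 1.55 CPM (log2 fold change -0.79, SE 0.071, edgeR adjusted p = 3.15e-07). Il1rn, the antagonist of the IL-1 receptor, fell from 94.2 ± 0.895 to 55.6 ± 6.29 CPM (log2 fold change -0.76, edgeR adjusted p = 1.66e-07). Csf3, the granulocyte growth factor, fell from 2.1 ± 0.205 to 0.849 ± 0.131 CPM (log2 fold change -1.30, edgeR adjusted p = 0.00688).

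Among 14 tested immune checkpoint ligands 5 rose and 2 fell (median 0.20; 1 lower without untreated replicate 1 or 3 or IFNγ replicate 2 or 3). Cd274 (ENSMUSG00000016496), which encodes PD-L1, stood at 19.3, 17.7 and 18.8 CPM without IFNγ and 162, 180.2 and 171 CPM with it (log2 fold change 3.21, SE 0.060, edgeR adjusted p = 3.41e-16), and overlaps Plgrkt on the other strand. All treated libraries were far above the untreated ones. Lgals9 (from 69 ± 2.47 to 95.6 ± 13.4 CPM, log2 fold change 0.47, edgeR adjusted p = 0.000186) and the "do not eat me" signal Cd47 (from 415 ± 4.05 to 491 ± 30.3 CPM, log2 fold change 0.24, edgeR adjusted p = 0.000750) rose less. Tnfrsf14, the herpesvirus entry mediator, came from no read to 1.6 ± 0.356 CPM, at least 10.7-fold higher. Ceacam1, an inhibitory adhesion molecule, fell from 159 ± 2.99 to 106 ± 3.73 CPM (log2 fold change -0.59, SE 0.045, edgeR adjusted p = 4.77e-08). Cd276, Pvr and Nectin2 were not called.

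Enzymes of tryptophan, arginine and nitric oxide metabolism were mostly higher (6 of 9 tested, 5 of them at 2-fold or more, with 2 lower, or 1 lower without untreated replicate 1 or 3 or IFNγ replicate 1 or 2, and a median of 2.93, or 2.24 with unread genes at their bound). Ido1, which degrades tryptophan, had 4 reads in the untreated group (0, 0.167 and 0 CPM) and 69.4, 76 and 74.3 CPM with IFNγ (edgeR adjusted p = 1.39e-14). Nos2, the inducible nitric oxide synthase, stood at 5.93, 4.17 and 3.96 CPM without IFNγ and 110.0, 108 and 97.7 CPM with it (log2 fold change 4.50, SE 0.10, edgeR adjusted p = 5.29e-15). Ido2 rose from 3.27 ± 0.436 to 32.5 ± 3.1 CPM (log2 fold change 3.31, edgeR adjusted p = 5.23e-12). Wars, the tryptophanyl-tRNA synthetase, rose from 89.2 ± 1.01 to 678 ± 57.8 CPM (log2 fold change 2.93, SE 0.059, edgeR adjusted p = 1.08e-15). The urea cycle enzyme Asl fell from 44.6 ± 1.79 to 33.7 ± 4.34 CPM (log2 fold change -0.40, SE 0.081, edgeR adjusted p = 0.00132), as did Arg2, from 1.4 ± 0.337 to 0.539 ± 0.298 CPM (edgeR adjusted p = 0.0319).

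Of 29 tested cell death genes 18 rose and 3 fell (median 0.45; 1 lower without untreated replicate 1 or 3). Mlkl, the pore former of necroptosis, stood at 22.9, 18.7 and 20.9 CPM without IFNγ and 85.5, 81.6 and 80.4 CPM with it (log2 fold change 1.99, SE 0.068, edgeR adjusted p = 1.23e-12), with no overlap. The pyroptosis protease Casp1 rose from 6.71 ± 1.13 to 27.5 ± 1.23 CPM (log2 fold change 2.03, SE 0.10, edgeR adjusted p = 1.36e-10). The apolipoproteins Apol9a and Apol9b rose from 0.517 ± 0.0584 to 65.9 ± 6.61 CPM and from 3.15 ± 1.01 to 117 ± 4.53 CPM, with log2 fold changes of 6.96 and 5.21. The pro-apoptotic Bcl2l11 (Bim) fell from 85.2 ± 1.9 to 69.3 ± 4.05 CPM (log2 fold change -0.30, SE 0.052, edgeR adjusted p = 0.000420). In the complement list 6 of 11 rose and 1 fell (median 0.40). The classical pathway protease C1s1 rose from 49.9 ± 2.24 to 242 ± 6.97 CPM (log2 fold change 2.28, SE 0.051, edgeR adjusted p = 4.85e-15). Its partner C1ra rose from 80.2 ± 2.79 to 278 ± 9.42 CPM (log2 fold change 1.79, edgeR adjusted p = 1.90e-14). Factor B (Cfb) of the alternative pathway rose from 26.4 ± 1.49 to 68.1 ± 5.13 CPM. The member that fell was C3, the central component, from 257 ± 1.93 to 191 ± 8.27 CPM (log2 fold change -0.43, SE 0.052, edgeR adjusted p = 1.08e-05). NF-kB subunits, feedback and adhesion targets moved less, with 5 of 17 higher and 1 lower (median 0.09). The adhesion molecule Icam1 rose from 1.49 ± 0.50 to 7.81 ± 0.708 CPM (log2 fold change 2.41, SE 0.17, edgeR adjusted p = 1.99e-08). The inhibitor Nfkbia fell from 57.9 ± 2.67 to 43.5 ± 1.21 CPM (log2 fold change -0.41, SE 0.050, edgeR adjusted p = 1.04e-05). Without IFNγ replicate 1, 3 members of that list were lower.

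Proliferation genes rose slightly and broadly. Of 34 tested E2F and DNA replication genes 26 rose and none fell (median 0.25), and this was still 21 and 0 (median 0.18) with scaling by totals. Rfc3, a clamp loader subunit, stood at 59.6, 59.2 and 58.9 CPM without IFNγ and 91.5, 89.2 and 87.8 CPM with it (log2 fold change 0.59, SE 0.056, edgeR adjusted p = 6.06e-07), a small shift with no overlap between the groups. E2f1 rose from 43.8 ± 2.38 to 58 ± 2.73 CPM (log2 fold change 0.41, SE 0.072, edgeR adjusted p = 0.000456), and Pcna, the replication clamp, was not called (411 ± 3.88 and 431 ± 15.4 CPM). Of 30 mitosis genes 16 rose and none fell (median 0.16), but with scaling by totals 7 rose and 1 fell. Top2a, the topoisomerase of dividing cells, rose from 854 ± 14.6 to 1241 ± 24.9 CPM (log2 fold change 0.54, SE 0.038, edgeR adjusted p = 1.50e-08). Foxm1, the activator of mitotic genes, rose from 152 ± 3.02 to 201 ± 13 CPM (log2 fold change 0.41, edgeR adjusted p = 4.05e-05). Mki67, the usual marker of cycling cells, was not called (593 ± 6.29 and 564 ± 58.3 CPM). In the Myc and ribosome biogenesis list 16 of 27 rose and 2 fell (median 0.16), against 7 and 2 with scaling by totals, 10 higher without untreated replicate 1 and 9 without untreated replicate 3. The count of lower genes was 1 without untreated replicate 1 or 2 or IFNγ replicate 1 or 3. Nolc1, a nucleolar phosphoprotein, rose from 221 ± 4.4 to 277 ± 9.93 CPM (log2 fold change 0.32, edgeR adjusted p = 3.27e-05). Mycn, a relative of Myc, fell from 11.1 ± 0.843 to 8.47 ± 0.33 CPM (log2 fold change -0.40, edgeR adjusted p = 0.00914).

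Integrated stress response genes rose more often than they fell, whereas p53 targets and CDK inhibitors moved both ways. Of 25 genes of the integrated stress response and amino acid metabolism 14 rose (56%) and 5 fell (20%), with a median of 0.24. The counts were 13 and 6 with scaling by totals. Without untreated replicate 1 or IFNγ replicate 2, 3 were lower. Atf4, the transcription factor of this response, rose from 323 ± 13 to 402 ± 4.68 CPM (log2 fold change 0.31, SE 0.046, edgeR adjusted p = 7.24e-05). Its targets Trib3 and Asns, the asparagine synthetase, rose from 9.42 ± 1.04 to 22.2 ± 3.21 CPM and from 55 ± 0.703 to 86.2 ± 11.6 CPM. Ddit4, an inhibitor of mTOR signaling, fell from 55.4 ± 1.34 to 43.1 ± 1.96 CPM (log2 fold change -0.36, SE 0.059, edgeR adjusted p = 0.000207). Of 18 p53 targets and CDK inhibitors 4 rose (22.2%) and 5 fell (27.8%), against 15.7% and 14.5% of all genes tested. Their median of 0.03 turned to −0.03 with scaling by totals (2 higher, 6 lower). Without untreated replicate 2 or IFNγ replicate 1, 2 were higher. Cdkn1a (p21) was not called (7.66 ± 1.41 and 7.86 ± 0.835 CPM). Sesn1 fell from 31.9 ± 0.77 to 21.6 ± 0.409 CPM (log2 fold change -0.56, edgeR adjusted p = 2.15e-06). Cdkn2a, which encodes p16 and p19, fell from 200.1 ± 5.58 to 142 ± 23.8 CPM (log2 fold change -0.50, edgeR adjusted p = 0.000702). In glycolysis and the hypoxia response 5 of 26 rose (19.2%) and 7 fell (26.9%), with a median of −0.04 (3 and 12 with scaling by totals). Hk2, the hexokinase of tumor cells, rose from 169.5 ± 5.9 to 306 ± 10.6 CPM (log2 fold change 0.85, SE 0.043, edgeR adjusted p = 2.54e-10). Pfkfb3, which makes an activator of phosphofructokinase, stood at 134, 139 and 138 CPM without IFNγ and 69, 73.2 and 75.8 CPM with it (log2 fold change -0.92, SE 0.047, edgeR adjusted p = 3.35e-10). Of the phosphofructokinases themselves, Pfkp rose from 37 ± 0.386 to 60.7 ± 2.58 CPM (log2 fold change 0.71, edgeR adjusted p = 9.48e-09) and Pfkl fell from 226 ± 1.57 to 194 ± 15.3 CPM (log2 fold change -0.22, edgeR adjusted p = 0.00334). The glycolysis list had 3 higher without untreated replicate 2 and 12 lower without IFNγ replicate 1. In the list of EGFR family members, FGF receptors and MAPK feedback 8 of 28 rose (28.6%) and 6 fell (21.4%). The median was −0.03, and 3 were lower without untreated replicate 1. The receptor of hepatocyte growth factor, Met, rose from 107 ± 3.64 to 185 ± 6.09 CPM (log2 fold change 0.79, SE 0.044, edgeR adjusted p = 9.86e-10). Egfr rose from 39.6 ± 3.6 to 56.7 ± 3.04 CPM (log2 fold change 0.52, edgeR adjusted p = 9.28e-05). Its relative Erbb2 fell from 98.7 ± 3.01 to 81 ± 6.72 CPM (log2 fold change -0.29, edgeR adjusted p = 0.00204).

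Among called genes averaging 5 CPM or more with no overlap between the groups, the 4 that fell most were Muc5ac, Hp, Muc5b and Olfm4. Muc5ac (ENSMUSG00000037974), the gel-forming mucin of gastric and neoplastic ductal cells, stood at 10.6, 12.5 and 11.1 CPM without IFNγ and 2.68, 1.78 and 1.53 CPM with it (log2 fold change -2.52, SE 0.20, edgeR adjusted p = 7.38e-08). Muc5b, its neighbour and another gel-forming mucin, fell from 84.2 ± 3.6 to 17.7 ± 3.8 CPM (log2 fold change -2.25, SE 0.11, edgeR adjusted p = 1.69e-10). Olfm4, a secreted marker of intestinal and foregut progenitors, fell from 39.8 ± 2.32 to 9.91 ± 1.26 CPM (log2 fold change -2.01, SE 0.10, edgeR adjusted p = 1.07e-10). Haptoglobin (Hp), the hemoglobin scavenger, fell from 11.9 ± 0.737 to 2.42 ± 0.592 CPM (log2 fold change -2.29, SE 0.20, edgeR adjusted p = 2.17e-07). Of 23 tested genes of ductal, epithelial and foregut identity 11 fell and 1 rose (median −0.28). Sox9, a regulator of ductal identity, stood at 183, 185 and 191 CPM without IFNγ and 137, 119 and 121 CPM with it (log2 fold change -0.57, SE 0.059, edgeR adjusted p = 2.08e-06). Hnf4a, a regulator of foregut epithelium, fell from 50.1 ± 1.04 to 33.1 ± 3.19 CPM (log2 fold change -0.60, SE 0.061, edgeR adjusted p = 1.40e-06). The transmembrane mucin Muc1 fell from 68.6 ± 3.33 to 42.1 ± 2.54 CPM (log2 fold change -0.70, SE 0.057, edgeR adjusted p = 9.24e-08). Pdx1 and Gata6, other regulators of this lineage, were not called, and the keratin Krt18 was the 1 member that rose (from 685 ± 7.58 to 1126 ± 106 CPM, log2 fold change 0.72, SE 0.054, edgeR adjusted p = 3.84e-08). Without IFNγ replicate 1 the list had 12 lower and 3 higher, and 2 were higher without IFNγ replicate 2.

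**Figure D5:**
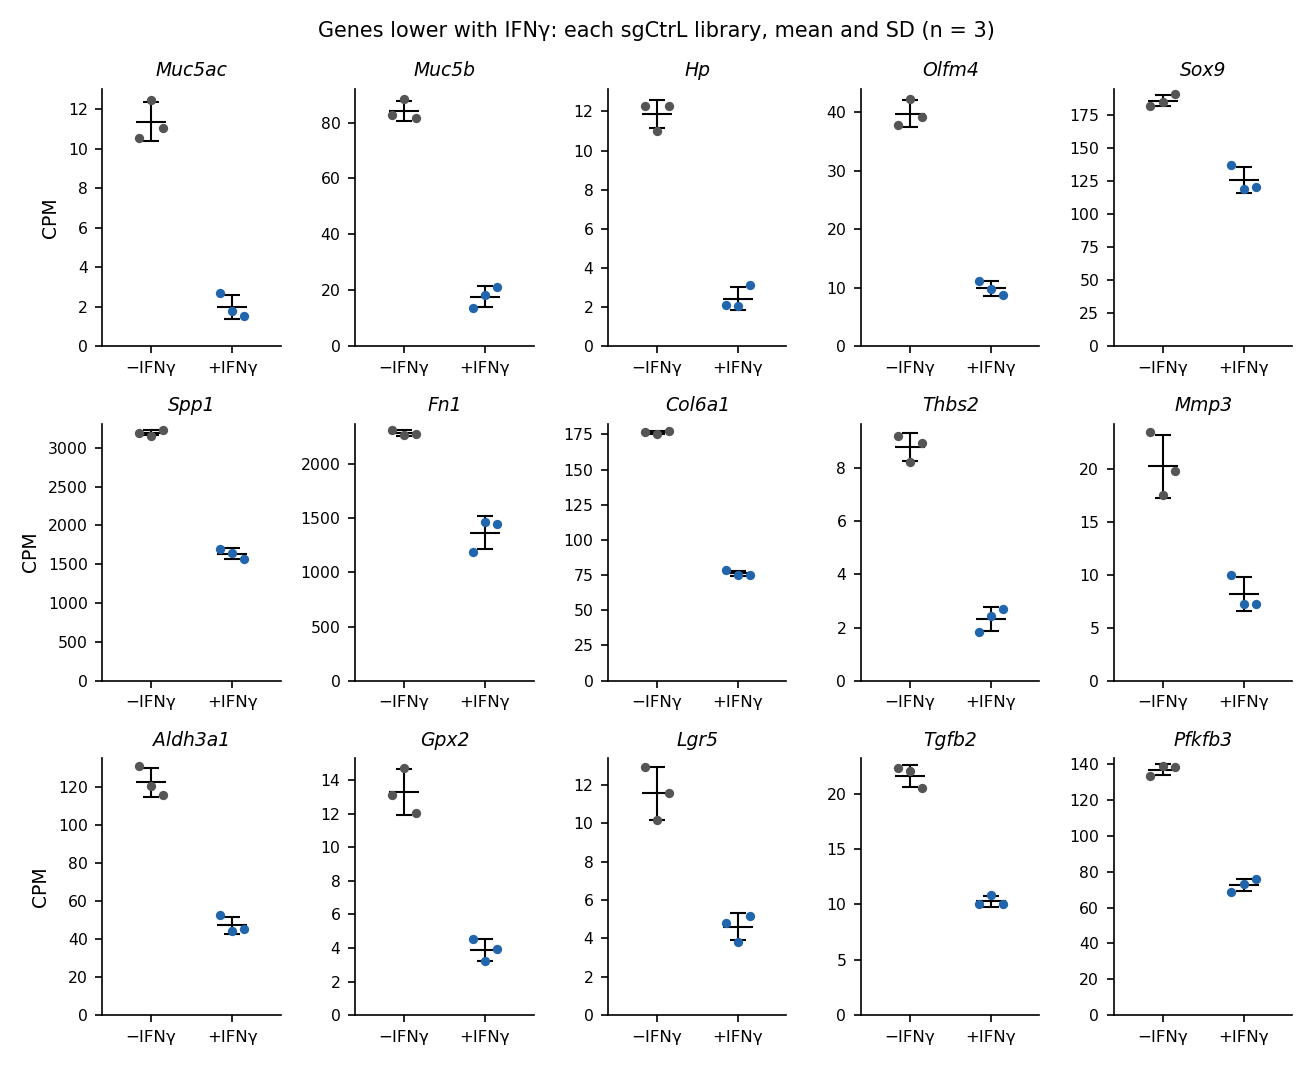
Each panel is 1 of 15 named genes picked among those called lower with IFNγ. Dots give the 3 untreated and the 3 IFNγ-treated control libraries in CPM, with the mean and SD. Each panel has a linear axis of its own that starts at 0. The treated dots lie below the untreated ones for each gene.

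The list with the most falls was the matrix: 23 of 35 tested collagens and matrix proteins fell and 4 rose (median −0.48; 27 and 4 with scaling by totals, 22 and 4 without IFNγ replicate 1). Spp1 (ENSMUSG00000029304) stood at 3195, 3156 and 3227 CPM without IFNγ and 1697, 1648 and 1568 CPM with it (log2 fold change -0.96, SE 0.039, edgeR adjusted p = 1.54e-11). Fn1 (fibronectin) stood at 2318, 2268 and 2273 CPM without IFNγ and 1193, 1465 and 1446 CPM with it (log2 fold change -0.74, SE 0.072, edgeR adjusted p = 9.14e-07). No treated library of either gene reached the untreated range. Collagen VI, which forms beaded filaments, is built of several chains. Col6a1 stood at 177, 175 and 177 CPM without IFNγ and 78.6, 75.2 and 74.9 CPM with it (log2 fold change -1.21, SE 0.048, edgeR adjusted p = 1.04e-11). Col6a2 fell from 122 ± 3.47 to 56 ± 2.34 CPM (log2 fold change -1.13, edgeR adjusted p = 1.94e-11). A further chain in the list, Col6a3, rose from 5.13 ± 0.998 to 20.6 ± 0.745 CPM (log2 fold change 2.0, edgeR adjusted p = 3.75e-09). The chains of this collagen thus parted. The basement membrane chains Col4a1 and Col4a2 fell from 233 ± 5.27 to 161 ± 4.89 CPM and from 144 ± 1.6 to 91.2 ± 2.96 CPM, by 0.53 and 0.65 on the log2 scale. Of the thrombospondins, matricellular regulators of adhesion, Thbs2 fell from 8.79 ± 0.513 to 2.32 ± 0.44 CPM (log2 fold change -1.91, SE 0.12, edgeR adjusted p = 5.38e-09). Thbs1 rose from 246 ± 5.17 to 353 ± 3.47 CPM (log2 fold change 0.52, SE 0.043, edgeR adjusted p = 1.56e-07). Col8a1, a short-chain collagen, also rose (from 10.5 ± 0.417 to 34.1 ± 1.13 CPM, log2 fold change 1.70, SE 0.070, edgeR adjusted p = 1.60e-11).

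The fibroblast and endothelial markers themselves included 1 gene that rose and 2 that fell among 6 tested. The PDGF receptors Pdgfra and Pdgfrb, both read clearly in untreated cells, fell by 0.50 and 0.61 on the log2 scale. Smooth muscle actin (Acta2) rose from 0.314 ± 0.128 to 5.67 ± 0.61 CPM (log2 fold change 4.10, SE 0.27, edgeR adjusted p = 8.71e-09), but it overlaps Stambpl1 on the other strand and may share reads with it where strand is not used. Of the 2 immune markers tested, Ly6g rose (log2 fold change 0.68, SE 0.12, edgeR adjusted p = 0.000409) and Cd68 was not called. What part these genes have in the matrix result was not tested. In bulk RNA, fewer cells with a transcript and less of it per cell cannot be told apart.

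Of 19 tested metalloproteinases and their inhibitors 10 fell and 6 rose (median −0.26). Mmp13, an interstitial collagenase, fell from 888 ± 8.55 to 579.5 ± 10.2 CPM (log2 fold change -0.62, SE 0.040, edgeR adjusted p = 5.64e-09). The stromelysin Mmp3 fell from 20.2 ± 2.97 to 8.15 ± 1.6 CPM (log2 fold change -1.31, SE 0.14, edgeR adjusted p = 2.89e-06). Adamts1, a proteoglycanase, rose from 98.1 ± 1.22 to 221 ± 1.57 CPM (log2 fold change 1.17, SE 0.042, edgeR adjusted p = 2.53e-12). Of the inhibitors, Timp1 rose from 26.9 ± 2.15 to 41.6 ± 2.84 CPM and Timp3 rose from 98.7 ± 0.497 to 147 ± 1.65 CPM, while Timp2 fell from 688 ± 17 to 573 ± 67.2 CPM. Of 25 tested TGF-β, activin and YAP target genes 8 fell and 3 rose (median −0.06; 5 lower without IFNγ replicate 2). The ligand Tgfb2 fell from 21.6 ± 0.974 to 10.3 ± 0.466 CPM (log2 fold change -1.07, SE 0.093, edgeR adjusted p = 2.31e-07). The receptors Tgfbr1 and Tgfbr3 fell from 207 ± 1.22 to 161 ± 8.36 CPM and from 56 ± 1.98 to 33.9 ± 0.66 CPM, by 0.37 and 0.72 on the log2 scale. Fst (follistatin), the activin antagonist, went against them, at 13.4, 12.7 and 13.7 CPM without IFNγ and 98.3, 84.4 and 91 CPM with it (log2 fold change 2.78, SE 0.065, edgeR adjusted p = 8.92e-15). Among 13 tested EMT regulators and cadherins 3 rose and 3 fell (23.1% each, against 15.7% higher and 14.5% lower over all genes tested). The median was −0.11, and the counts were 1 and 4 with scaling by totals. The rises of Twist1, Snai2 and Vim were small and at most 1 of the list stayed called higher when untreated replicate 1, 2 or 3 or IFNγ replicate 1 or 2 was left out, with none without untreated replicate 2. Snai1, a repressor of E-cadherin, fell from 15.3 ± 0.698 to 10.8 ± 1.07 CPM (log2 fold change -0.50, SE 0.11, edgeR adjusted p = 0.00206).

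In the Wnt and Hedgehog list 8 of 20 tested members fell and 3 rose (median −0.42). Lgr5, the R-spondin receptor of stem cells, stood at 12.9, 10.2 and 11.6 CPM without IFNγ and 4.82, 3.82 and 5.18 CPM with it (log2 fold change -1.33, SE 0.14, edgeR adjusted p = 2.36e-06). The groups did not overlap. Axin2, a feedback target of β-catenin, fell from 19.3 ± 1.31 to 13.3 ± 1.45 CPM (log2 fold change -0.54, SE 0.089, edgeR adjusted p = 0.000227). The ligand Wnt10b fell from 4.22 ± 0.547 to 2.44 ± 0.196 CPM (log2 fold change -0.79, edgeR adjusted p = 0.00621). Sfrp1, a secreted Wnt inhibitor, rose from 48.5 ± 1.02 to 67.9 ± 4.25 CPM (log2 fold change 0.49, SE 0.063, edgeR adjusted p = 2.27e-05).

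Of 17 tested Nrf2 and glutathione genes 10 fell and 2 rose (median −0.30). Aldh3a1, an aldehyde dehydrogenase, stood at 131, 121 and 116 CPM without IFNγ and 52.4, 44.1 and 45.5 CPM with it (log2 fold change -1.37, SE 0.065, edgeR adjusted p = 1.13e-10). Gpx2, the epithelial glutathione peroxidase, fell from 13.3 ± 1.36 to 3.88 ± 0.657 CPM (log2 fold change -1.79, SE 0.13, edgeR adjusted p = 2.59e-08). The glutathione transferases Gsta3 and Gsta1 fell from 4.89 ± 0.589 to 0.968 ± 0.245 CPM and from 13.3 ± 1.16 to 6.27 ± 0.451 CPM, by 2.30 and 1.08 on the log2 scale. The subunits of the enzyme that limits glutathione synthesis parted. The catalytic Gclc fell from 299 ± 9.95 to 215 ± 4.18 CPM (log2 fold change -0.47, SE 0.043, edgeR adjusted p = 3.81e-07). The modifier Gclm rose from 98.3 ± 1.26 to 121 ± 16.4 CPM (log2 fold change 0.30, edgeR adjusted p = 0.00580). Nfe2l2, which encodes Nrf2 itself, was not called (209 ± 2.48 and 218 ± 20.8 CPM).

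Lipid synthesis genes changed by small amounts, more often down than up, and respiratory chain genes hardly changed. In the fatty acid list 40% fell and in the cholesterol list 24%, against 14.5% of all genes tested. In the cholesterol list 2 of 25 rose and 6 fell (median −0.04; 0 and 10 with scaling by totals), and between 2 and 3 fell when untreated replicate 1, 2 or 3 or IFNγ replicate 2 or 3 was left out. Srebf2, the regulator of the pathway, fell from 381 ± 5.42 to 328 ± 8.11 CPM (log2 fold change -0.22, SE 0.047, edgeR adjusted p = 0.00258). In the fatty acid list 1 of 15 rose and 6 fell (median −0.09; 1 and 8 with scaling by totals, and 2 higher without IFNγ replicate 1 or 3), with the synthase Fasn at 698 ± 13.4 and 589.9 ± 5.51 CPM (log2 fold change -0.24, SE 0.052, edgeR adjusted p = 0.00239). Of 30 nuclear-encoded subunits of the respiratory chain 1 fell (Sdhc) and none rose (median −0.01); without IFNγ replicate 1, 3 rose and 2 fell, without IFNγ replicate 2, 2 fell, and none fell without untreated replicate 1 or 2 or IFNγ replicate 3. Of 22 tested Sin3 complex genes 3 rose (13.6%) and 4 fell (18.2%), near the 15.7% and 14.5% of all genes tested. Their median of 0.05 turned to −0.02 with scaling by totals (0 higher, 4 lower). No more than 1 of them was higher when any library but IFNγ replicate 3 was left out, and 2 were lower without untreated replicate 2. Sin3b, the gene targeted in the other arm, had 93.2, 95.6 and 88.5 CPM without and 80.4, 84.3 and 83.9 CPM with IFNγ in control cells (log2 fold change -0.16, SE 0.050, edgeR adjusted p = 0.0264). The histone demethylase Kdm5b, counted in the Sin3 complex list, fell from 102 ± 1.4 to 73.8 ± 4.12 CPM (log2 fold change -0.48, SE 0.048, edgeR adjusted p = 1.27e-06).

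Many of the strong changes involved genes near the limit of detection. Of the 478 genes 224 were under 1 CPM in untreated cells, and 177 of the 303 were under 1 CPM in treated cells. With a stricter reading, at most 3 counts in each library of one group and at least 1 CPM in each of the other, 25 genes were switched on and none was switched off; 12 of the 25 had no read in untreated cells. Besides Cxcl9 these included Serpina3f, a serine protease inhibitor, at 27.9 ± 2.21 CPM and at least 187-fold higher, Ifi206, of the DNA-binding Ifi200 family, at 13.8 ± 1.26 CPM and at least 92.5-fold higher, and the apolipoprotein Apol7e at 5.79 ± 0.282 CPM and at least 38.8-fold higher. Gm43302, a predicted gene, reached 184 ± 29.4 CPM, at least 1235-fold higher, but overlaps Gbp10 and Gbp6. Olfr56, an olfactory receptor gene with 6 reads in the untreated group and 54.4 ± 5.16 CPM in the treated one, overlaps Ifi47, so that their reads cannot be told apart.

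The induced genes were often neighbours. In the RefSeq order of genes, 162 of 415 genes at least 2-fold higher (39.0%) stood next to another such gene, against 5.59% of all 13486 genes placed having one beside them; for the 2-fold lower genes it was 34 of 282 (12.1%) against 4.09%. The longest run had 11 genes on chromosome 11, from Irgm1 through Tgtp1, Tgtp2 and Ifi47 to Olfr56, and the next 10 genes of the Ifi200 family on chromosome 1. A run of 6 on chromosome 17 joined class II and class I functions, in the order H2-DMb1, Psmb9, Tap1, Psmb8, Tap2 and H2-Ab1. Others held the Gbp genes of chromosome 5 (6) and chromosome 3 (5, with Kyat3 at its end), the Ifit genes of chromosome 19 (5) and the Cxcr3 ligands Cxcl9, Cxcl10 and Cxcl11 (3, on chromosome 5). Several of these runs are families of close copies, and shared or overlapping reads within them were not resolved.

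The 6 libraries of Sin3Bsg1 cells, in which Sin3b is the target of the guide, received the same treatment and give a second look at the strong genes. Sin3b itself stood at 39.1 ± 0.412 CPM without and 35.6 ± 2.04 CPM with IFNγ in these cells, below each control library. Of the 478 genes 469 moved the same way there and 418 were called. Of the 303 genes 292 moved the same way and 192 were called. Of all 14913 genes tested, 7610 moved up in Sin3Bsg1 cells and 2396 were called higher, while 7303 moved down and 1836 were called lower. The test of the difference between the 2 responses called 17 of 14913 genes (0.114%). Iigp1 had the larger log2 fold change in Sin3Bsg1 cells, by 1.12 (SE 0.087, edgeR adjusted p = 2.05e-05), and so did Cd274 (by 0.47, SE 0.084, edgeR adjusted p = 0.0454). Iigp1 went from 19.5 ± 2.2 to 1621 ± 7.64 CPM there, against 47.3 to 1820 CPM in control cells. For Cd274 it was 12.9 to 165 CPM against 18.6 to 171 CPM. Control cells had the larger log2 fold change for H2-K1 (difference -0.63, SE 0.082, edgeR adjusted p = 0.00931), H2-Q4 and Fst. Yet these genes stood higher in Sin3Bsg1 than in control cells, both without and with IFNγ. H2-K1 had 26.9 against 14.1 CPM without IFNγ and 726 against 589 CPM with it. Without IFNγ replicate 1 the count was 33 and without IFNγ replicate 3 it was 6, while it was 3, 3 and 1 without untreated replicate 1, 2 and 3.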

How the data were processed

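RNA-seq libraries of KPC1199 cells were measured for 12 samples of the IFNγ experiment, and the 6 sgCtrL libraries were grouped by their labels. The authors deposited estimated counts per gene with gene lengths and their own group means, which were checked and not used. A second table, of untreated cells only, was not used here. The study's methods name HISAT2, featureCounts, uniquely mapped reads and mm9, whereas the submitters' processing notes list fastp, HISAT2, StringTie, DESeq2 and mm39, so no coordinates were taken from the table. The strand setting was not given in the sources used here.

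The deposited estimated counts were rounded and fitted in edgeR 4.0.16 (R 4.3.3) over the 12 libraries with 1 mean per group, TMM scaling (factors 0.957 to 1.04), filterByExpr, glmQLFit and glmQLFTest (two-sided). The contrast was sgCtrL with minus without IFNγ. Calls had an adjusted p under 0.05 over 14913 genes, and a tier of 2-fold or more was counted apart. The biological coefficient of variation was 6.78%. TPM were computed from the deposited lengths. Fold bounds used a floor of 3 counts per library, and intervals cover counting error only. Sequencing totals of 18128055 to 27056903 set the depth. Python 3.11.15, pandas 2.3.3, numpy 2.4.6, scipy 1.17.1 and matplotlib 3.10.9 did the rest, and the fit was tested on simulated data.

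The genes and the 36 lists were chosen with earlier results of these data known. Named genes were Irf1, Cxcl9 and Sin3b, the 15 called genes each way that changed most (averaging 5 CPM or more, with groups that did not overlap), up to 5 called members of each list per direction with at least 1 CPM, the 10 largest TPM differences per direction, up to 10 switched genes, and those of these passing the test between guides. Other list members named in the text were picked after their values were seen, mainly as counterparts. Of 292 such genes by the rule, 274 were called, and some genes are not reported here. Alternatives were DESeq2 1.42.0, other scalings and filters, a replicate block, a fit of the 6 libraries alone and leaving out each library.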

Additional observations from a re-analysis of the deposited data

Results flagged for a closer look

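The response to IFNγ differed between control and Sin3Bsg1 cells by the interaction term of edgeR's fit for 17 genes, and 5 of the genes named above were among them. The difference, Sin3Bsg1 minus control on the log2 scale, was -0.82 (SE 0.12, edgeR adjusted p = 0.0201) for the MHC class I gene H2-Q4, which went from 2.78 ± 0.173 to 156 ± 8.41 CPM in control cells and from 7.0 ± 0.681 to 221 ± 6.41 CPM in Sin3Bsg1 cells. For H2-K1 it was -0.63 (SE 0.082, edgeR adjusted p = 0.00931), with a change from 14.1 ± 0.601 to 589 ± 21.2 CPM in control cells against 26.9 ± 1.63 to 726 ± 32.3 CPM. For Fst it was -0.58 (SE 0.088, edgeR adjusted p = 0.0203), with a change from 13.3 ± 0.488 to 91.2 ± 6.97 CPM against 26.6 ± 0.473 to 123 ± 4.37 CPM. In the other direction it was 0.47 (SE 0.084, edgeR adjusted p = 0.0454) for Cd274, with a change from 18.6 ± 0.818 to 171 ± 9.25 CPM in control cells against 12.9 ± 0.726 to 165 ± 4.26 CPM, and 1.12 (SE 0.087, edgeR adjusted p = 2.05e-05) for Iigp1, with a change from 47.3 ± 2.35 to 1819.7 ± 41.7 CPM against 19.5 ± 2.2 to 1621 ± 7.64 CPM. No group had the 4 samples needed to look for single outlying libraries gene by gene.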

How the results depend on the processing

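The counts over all genes of those called, higher and lower, at any size and at 2-fold or more, and of those differing between guides stayed within 1.5 times of their reported values under the alternatives run, with 2 exceptions. With only genes of at least 10 counts in every library kept, the tier of 2-fold or more fell to 448 genes (284 higher, 164 lower), since genes unread in 1 group no longer entered. The count of genes whose response differed between guides was 32 with DESeq2, 110 without a filter and from 1 to 33 when libraries were left out in turn; the cause was not tested. DESeq2 gave 2133 higher and 2066 lower, and the fit of the 6 libraries alone gave 1836 and 1709. Leaving out libraries gave 1875 to 2282 higher and 1664 to 2444 lower, with 452 to 510 and 261 to 310 at 2-fold. With the replicate block the counts were 2273 higher and 2127 lower, 473 and 291 at 2-fold and 13 between guides, although the numbers did not pair the libraries (correlations of the deviations of same-numbered libraries −0.003, 0.192 and −0.006), and with the block in the 6 libraries alone, chosen after seeing the data, they were 1634 and 1521. Of the 274 called genes among those named by the rule none turned its direction, whereas some near 0 that were not called, such as Cdkn1a and Sin3a, changed sign with scaling by totals, and 45 of the called lost their call under at least 1 alternative, those with small changes such as Sin3b, Twist1 and Vim among them. Scaling by totals left 7 mitosis, 7 Myc and ribosome biogenesis and 3 glycolysis genes higher, and 10 cholesterol and 12 glycolysis genes lower, and small counts of other lists moved as well. The ≥10 count filter left 29 antiviral, 6 guanylate-binding, 4 chemokine, 5 cytokine and 2 class II genes higher. Precision rests on 3 libraries a side, 1 of which stood apart, and genes under 1 CPM rest on few reads, so their size of change is poorly fixed.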

Other observations

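Several genes outside the lists were among the largest falls of genes averaging 5 CPM or more. Ddit4l, a relative of the stress gene Ddit4, fell from 8.49 ± 0.885 to 2.3 ± 0.469 CPM (log2 fold change -1.89, SE 0.17, edgeR adjusted p = 2.89e-07). Penk, the precursor of enkephalin peptides, fell from 8.09 ± 0.563 to 2.31 ± 0.83 CPM (log2 fold change -1.82, SE 0.19, edgeR adjusted p = 2.60e-06). The integrin chain Itga8 fell from 12 ± 0.324 to 3.91 ± 0.34 CPM (log2 fold change -1.61, SE 0.13, edgeR adjusted p = 1.13e-07) and the monocarboxylate transporter Slc16a7 fell from 8.62 ± 0.325 to 2.84 ± 0.603 CPM (log2 fold change -1.59, SE 0.20, edgeR adjusted p = 1.51e-05). Genes of this group of largest falls had to show no overlap between treated and untreated libraries, so that separation is no further support. Other membrane transport and signaling genes of that group were the lipid transporter Abca8a, from 78.2 ± 1.31 to 23.9 ± 0.719 CPM, and the phosphodiesterase Pde11a, from 13.7 ± 0.613 to 4.56 ± 0.108 CPM. Prelp, a leucine-rich proteoglycan of the matrix that the matrix list does not hold, fell from 52.1 ± 3.08 to 17.7 ± 1.89 CPM (log2 fold change -1.56, SE 0.078, edgeR adjusted p = 1.92e-10).

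The Ly6 cluster of surface protein genes on chromosome 15 formed a run of 6 genes at least 2-fold higher. Ly6c1 rose from 284 ± 3.43 to 1024 ± 43.7 CPM (log2 fold change 1.85, SE 0.046, edgeR adjusted p = 1.67e-14) and Ly6a rose from 457 ± 16.7 to 1454 ± 121 CPM (log2 fold change 1.67, SE 0.067, edgeR adjusted p = 1.07e-11), with TPM of 792 ± 17.7 and 1160.1 ± 37.6 before and 2711 ± 79.2 and 3500.1 ± 251 after treatment. These genes are close copies, so their reads may be split among them. Plac8, a gene of the cytoplasm linked to pancreatic tumor growth, rose from 319 ± 4.17 to 640.2 ± 76.3 CPM (log2 fold change 1.0, SE 0.080, edgeR adjusted p = 8.05e-08). Transcripts of iron storage went the other way, with Ftl1 from 1899 ± 45 to 1442 ± 9.57 CPM (log2 fold change -0.40, SE 0.056, edgeR adjusted p = 4.81e-05), and the calcium-binding annexin Anxa2 and its partner S100a10 fell from 963 ± 5.3 to 775 ± 9.23 CPM (log2 fold change -0.31, SE 0.040, edgeR adjusted p = 1.58e-05) and from 412 ± 3.28 to 314 ± 56 CPM (log2 fold change -0.39, SE 0.10, edgeR adjusted p = 0.00593).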
